A study of Homo sapiens with 8 samples.

Results

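To examine what luteolin changes in cells that also receive gefitinib, 2 arrays of PC-3 cells given luteolin plus gefitinib were compared with 2 arrays of PC-3 cells given gefitinib only. These 4 arrays were taken by their treatment labels from the 8 miRNA arrays of the series. PC-3 is a widely used cell line from a human prostate cancer that grows without androgen. Luteolin is a plant flavonoid, and gefitinib inhibits the kinase activity of the epidermal growth factor receptor (EGFR). Cells of the first group received 60 µM luteolin and 60 µM gefitinib, cells of the second received 60 µM gefitinib, and RNA of both was taken after 24 h. Both drugs were dissolved in DMSO, so that solvent was common to both groups. The other 4 arrays, 2 of cells given DMSO and 2 of cells given 60 µM luteolin for 24 h, served to estimate the spread and to give the effect of luteolin without gefitinib. The labels call the arrays of a group biological replicates, and whether these were separate cultures is not given in the sources used here, so that the p-values measure only the spread between arrays.

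A miRNA is cut from a hairpin RNA as a short duplex of a 5p and a 3p strand, the 2 arms of the hairpin. As a rule one strand, the guide, is kept by an Argonaute protein and pairs through its seed (bases 2 to 8) with messenger RNAs, which are then translated less or degraded. The other strand, the passenger, is usually degraded soon after the duplex is opened, so that its level depends on how fast the hairpin is made and how the strands are sorted and lost.

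Each array measured 1887 human miRNAs. The scanner software detected 481 and 468 of these in gefitinib replicates 1 and 2, and 447 and 395 in replicates 1 and 2 of luteolin plus gefitinib. The total signal per miRNA was scaled so that the 75th percentile over the 365 miRNAs detected on all 8 arrays was equal on each array, and all signals below are on this scale. Before scaling this percentile was 90.9 and 92.7 with gefitinib and 87.0 and 60.5 with luteolin plus gefitinib, so that replicate 2 of luteolin plus gefitinib was the dimmest of the 4 arrays and detected the fewest miRNAs. Log2 signals of the 365 miRNAs correlated between the gefitinib replicates with r of 0.997, and between those given both drugs with r of 0.991. The SD of the differences between replicates was 0.21 and 0.38 in this order, on the log2 scale. Of the miRNAs chosen as markers of PC-3 cells, miR-21-5p, an abundant miRNA of epithelial cancers, had signals of 3922 and 4104 with gefitinib and 3608 and 4001 with luteolin plus gefitinib. miR-221-3p and miR-222-3p were detected on all 4 arrays and miR-205-5p on 1 array of each group, whereas miR-200c-3p and miR-141-3p, both miRNAs of epithelial cells, were detected on none. Of 15 markers of liver, muscle, neurons, blood and stroma, 14 were detected on none of the 4 arrays, and miR-9-5p had signals of 12.7 and 12.1 with gefitinib and 9.11 and 11.97 with luteolin plus gefitinib.

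The mature sequences of the miRNAs on which the results turn are shown first, with the seed in capitals, since 6 of them are the less studied arm of a well known hairpin. These arms were lower with luteolin plus gefitinib, and the partner arm from the same hairpin is printed beneath each.
miR-182-3p: uGGUUCUAgacuugccaacua
miR-182-5p: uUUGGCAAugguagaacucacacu
miR-183-3p: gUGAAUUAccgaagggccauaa
miR-183-5p: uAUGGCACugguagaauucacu
miR-100-3p: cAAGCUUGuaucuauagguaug
miR-100-5p: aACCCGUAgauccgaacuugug
miR-30e-3p: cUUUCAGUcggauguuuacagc
miR-30e-5p: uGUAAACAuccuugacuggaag
miR-22-5p: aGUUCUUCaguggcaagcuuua
miR-22-3p: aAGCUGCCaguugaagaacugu
miR-769-3p: cUGGGAUCuccggggucuugguu
miR-769-5p: uGAGACCUcuggguucugagcu

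Of the miRNAs that were higher with luteolin plus gefitinib, the following are shown because they rose on every array with both drugs (miR-3125 and miR-4716-3p) or were detected only there and kept their call under each alternative (miR-5587-5p).
miR-3125: uAGAGGAAgcuguggagaga
miR-4716-3p: aAGGGGGAaggaaacauggaga
miR-5587-5p: aUGGUCACcuccgggacu

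All sequences are RefSeq's, 5′ to 3′, on build GRCh38.p14. The arms of MIR182 and MIR183 lie on the minus strand of chromosome 7, miR-182-3p at chr7:129770406-129770426 and miR-183-3p at chr7:129774928-129774949. miR-100-3p lies at chr11:122152240-122152261 on the minus strand within MIR100HG, miR-30e-3p at chr1:40754413-40754434 on the plus strand within NFYC, miR-22-5p at chr17:1713952-1713973 on the minus strand within MIR22HG, and miR-769-3p at chr19:46019000-46019022 on the plus strand. miR-3125 lies at chr2:12737376-12737395 on the plus strand and overlaps TRIB2. miR-4716-3p lies at chr15:49169079-49169100 on the minus strand within GALK2, and miR-5587-5p at chr16:535316-535333 on the plus strand within CAPN15. Whether these places are exons or introns was not examined. RefSeq's table matched 395 of the 480 miRNAs tested. None of the called miRNAs with a sequence shared its seed with another tested miRNA. Some partner arms belong to seed families, such as miR-30e-5p to the miR-30 family, and the pairs printed show that the 2 arms of a hairpin have different seeds.

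Few miRNAs were called when luteolin was added to gefitinib, and which direction held more of them depended on the processing. Of 480 miRNAs that both arrays of 1 or more of the 4 treatments detected, 22 (4.58%) were called changed, 5 (1.04%) higher and 17 (3.54%) lower, by limma with a Benjamini-Hochberg adjusted p under 0.05. Without adjustment, 60 had a limma p under 0.05. The RNA came from whole cultures, in which fewer cells of a kind and less of a miRNA per cell cannot be told apart. Of the 17 lower calls, 10 were of miRNAs at the floor on both arrays of luteolin plus gefitinib, which passed through the gefitinib group. The split was 2 higher and 19 lower with no scaling, 2 and 16 with the 75th percentile of the miRNAs detected on each array itself, and 7 and 4 after quantile normalization. It was 3 and 7 on the mean processed signal of the spots, and 9 and 4 when that signal was also scaled by its 75th percentile over all probes. With normexp and quantile normalization it was 6 and 5. Among the 388 miRNAs detected on all 4 arrays compared, 9 (2.32%) were called, 3 higher (0.773%) and 6 lower (1.55%). Their median log2 fold change was -0.03, the middle 50% lay between -0.24 and 0.14, and 17 changed over 2-fold, 3 up and 14 down. Both arrays of luteolin plus gefitinib were on one side of both gefitinib arrays for 204 of the 388 miRNAs (52.6%), above for 87 (22.4%) and below for 117 (30.2%). The changes lay among dim miRNAs. Of the 130 brightest of the 388, with a mean signal of 39.0 or more, none was called in limma and none changed over 2-fold, whereas 6 of the 129 in the middle and 3 of the 129 dimmest were called. In the plot of fold change by signal, the log2 fold changes narrow around 0 as the signal rises.

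**Figure D1:**
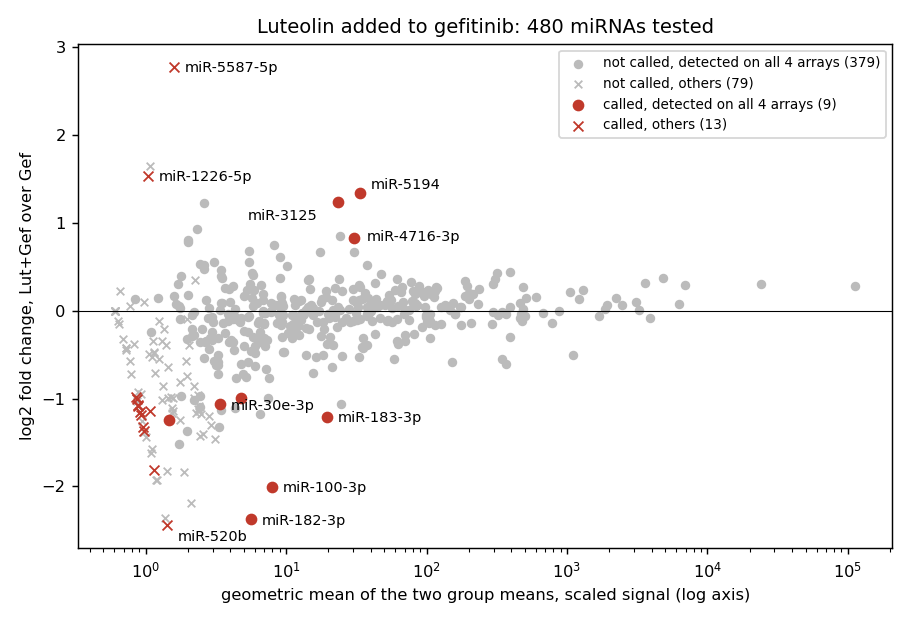
log2 fold change of luteolin plus gefitinib over gefitinib (y axis) against the geometric mean of both group means (scaled signal, log axis) for the 480 miRNAs tested; circles were detected on all 4 arrays, crosses were not, and the 22 called are red. The called circles lie below a signal of 39.0, 6 below 0 and 3 above, and most called crosses lie at the dim end.

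The 6 called miRNAs that fell and were detected on all 4 arrays were miR-182-3p, miR-100-3p, miR-769-3p, miR-183-3p, miR-30e-3p and miR-22-5p. miR-182-3p, from the cluster of miR-183, miR-96 and miR-182 that is known for its role in sensory cells and its high level in prostate cancer, had signals of 12.9 and 12.6 with gefitinib and 2.32 and 2.62 with luteolin plus gefitinib. It fell by 2.37 on the log2 scale (SE 0.20, adjusted p = 0.00305), the largest fall of the 388, and its call held under all 26 alternatives. Its neighbour in the cluster, miR-183-3p, had 28.9 and 30.4 with gefitinib and 12.7 and 13.03 with luteolin plus gefitinib, and fell by 1.21 (SE 0.16, adjusted p = 0.0101). For both miRNAs the groups were far apart and the replicates close. miR-100-3p, from the hairpin of miR-100-5p, a repressor of mTOR, had 19.7 and 12.5 with gefitinib and 4.06 and 3.76 with luteolin plus gefitinib. It fell by 2.004 (SE 0.31, adjusted p = 0.0215), and here the gefitinib arrays themselves differed, although both stayed above both arrays with luteolin. miR-30e-3p, from a hairpin of the miR-30 family, had 4.90 and 4.88 with gefitinib and 2.32 and 2.35 with luteolin plus gefitinib, and fell by 1.07 (SE 0.18, adjusted p = 0.0292). miR-22-5p, the partner of the tumour suppressor miR-22-3p, had 6.50 and 7.08 with gefitinib and 3.47 and 3.35 with luteolin plus gefitinib, and fell by 0.99 (SE 0.18, adjusted p = 0.0364). Both had levels with luteolin plus gefitinib below every other array of the series. miR-769-3p had 2.36 and 2.14 with gefitinib and 1.08 and 0.836 with luteolin plus gefitinib, and fell by 1.24 (SE 0.17, adjusted p = 0.0107). It was detected only where gefitinib was given, on none of the 4 other arrays, and 1 of its 4 probes moved. After quantile normalization the log2 fold change of miR-769-3p was -0.46 (limma, adjusted p = 0.756). With only the arrays of both groups in the fit its call was lost (adjusted p = 0.0631). The log2 fold changes of the 4 probes of miR-182-3p ran from -2.33 to -0.0055, and of the 4 probes each of miR-100-3p and miR-183-3p, 3 lay below 0 and the other at 0. Both probes of miR-30e-3p and of miR-22-5p lay below 0. On the mean processed signal of the spots the falls of miR-30e-3p and miR-22-5p were smaller, with log2 fold changes of -0.56 and -0.69 (adjusted p = 0.2103 and 0.1299).

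These calls, other than that of miR-182-3p, depended on the scaling and on single arrays. After quantile normalization the adjusted p in limma was 0.0738 for miR-183-3p, 0.436 for miR-30e-3p and 0.347 for miR-22-5p. With the 75th percentile of each array's own detected miRNAs it was 0.0525 for miR-100-3p. Without gefitinib replicate 1 the adjusted p in limma was 0.158 for miR-100-3p, 0.109 for miR-769-3p, 0.0821 for miR-183-3p, 0.192 for miR-30e-3p and 0.191 for miR-22-5p, and without gefitinib replicate 2 it was 0.0509 for miR-769-3p, 0.0569 for miR-183-3p, 0.1399 for miR-30e-3p and 0.185 for miR-22-5p. Leaving out replicate 1 of the cells given both drugs gave 0.0862 for miR-100-3p, 0.104 for miR-30e-3p and 0.109 for miR-22-5p, and leaving out their replicate 2 gave 0.1405 for miR-100-3p, 0.0627 for miR-183-3p, 0.177 for miR-30e-3p and 0.196 for miR-22-5p. Leaving out DMSO replicate 1 or 2 gave 0.0624 and 0.0770 for miR-100-3p.

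**Figure D2:**
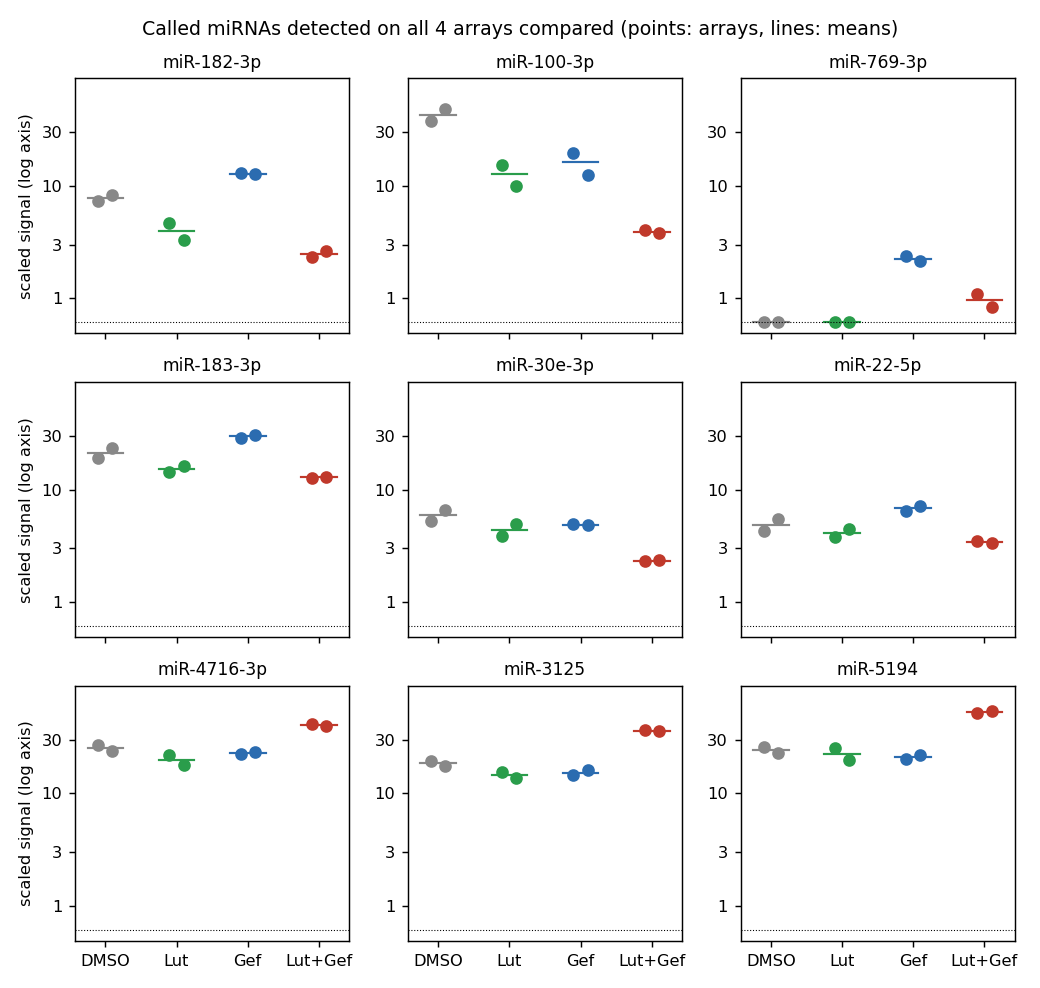
Scaled signal (log axis) of the 9 called miRNAs detected on all 4 arrays compared, in cells given DMSO, luteolin (Lut), gefitinib (Gef) or both; each point is 1 array, lines are means of 2 arrays and the dotted line is the floor of 0.609. In the upper 6 panels both arrays of Lut+Gef lie below both arrays of Gef, and in the lower 3 they lie above every other array.

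The partner arms of these hairpins were measured on the same arrays. Of 9 hairpins with a called arm and with both arms tested, 0 of the other arms were called in limma, beside 2.32% of the 388, and 0 had an unadjusted p under 0.05. With 9 arms this count is near the background, and most of these arms are as bright as the 130 miRNAs among which there was no call. miR-182-5p had signals of 68.2 and 74.8 with gefitinib and 53.0 and 56.4 with luteolin plus gefitinib, a log2 fold change of -0.38 (95% interval -0.98 to 0.21, adjusted p = 0.684). miR-100-5p had 3176 and 3373 with gefitinib and 3255 and 3317 with luteolin plus gefitinib, a log2 fold change of 0.01 (95% interval -0.54 to 0.55). The groups thus overlapped for miR-100-5p and did not for miR-182-5p. miR-183-5p had 51.4 and 57.8 with gefitinib and 41.6 and 74.8 with luteolin plus gefitinib, which left a wide interval of -1.13 to 1.202 around a log2 fold change of 0.03. The remaining partner arms had log2 fold changes of -0.11 for miR-30e-5p, -0.17 for miR-22-3p, 0.30 for miR-769-5p, 0.10 for let-7a-5p, -0.09 for let-7i-5p and -0.09 for miR-378a-3p. The plot of both arms shows that 9 called arms lay below -0.9 while the partner arms lay between -0.38 and 0.30.

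To give the difference between arms an error, the log2 ratio of the 5p to the 3p signal was taken within each array and fitted in limma for 54 hairpins. The scaling cancels in this ratio where both arms are above the floor, as for the 34 hairpins with both arms detected on all 4 arrays. This test was chosen after the falls of single arms had been seen. The ratio was called changed for 13 of the 54 (24.1%), and 18 had an unadjusted p under 0.05. Of the 34, 7 were called. The ratio of miR-182-5p to miR-182-3p rose by 1.99 on the log2 scale (95% interval 1.18 to 2.80, adjusted p = 0.0191), that of miR-100-5p to miR-100-3p rose by 2.01 (1.07 to 2.94, adjusted p = 0.0223) and that of miR-30e-5p to miR-30e-3p rose by 0.96 (0.50 to 1.42, adjusted p = 0.0223). The ratio of miR-22-5p to miR-22-3p fell by 0.83 (adjusted p = 0.0324). These hairpins hold a called arm, so their ratios restate the falls given above on another scale. The ratio of miR-769-5p to miR-769-3p rose by 1.54 (adjusted p = 0.0223). The ratios of the hairpins of miR-378a, let-7a and let-7i were also called, but there an arm was at the floor on both arrays with luteolin plus gefitinib, so that these calls are no support for a direction. For miR-183 the ratio rose by 1.24 with an adjusted p of 0.0580. The other 5 hairpins with a called ratio were those of miR-29b-1, miR-501, miR-4665, miR-5003 and miR-7-1, of which no arm was called on its own, and an arm of the last 3 was at the floor on some arrays. miR-29b-1-5p had signals of 10.68 and 8.94 with gefitinib and 3.90 and 4.79 with luteolin plus gefitinib, and its ratio to miR-29b-3p, a repressor of collagen genes, fell by 1.31 (adjusted p = 0.0191). miR-501-5p had 4.31 and 4.30 with gefitinib and 6.60 and 7.18 with luteolin plus gefitinib, and its ratio to miR-501-3p rose by 1.005 (adjusted p = 0.0223). The ratio test needed all 4 arrays: limma called 0 ratios when gefitinib replicate 1 was left out (13 with an unadjusted p under 0.05) and 2 when gefitinib replicate 2 was. It called 0 when replicate 1 or replicate 2 of both drugs was left out, with 19 and 11 under an unadjusted p of 0.05.

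**Figure D3:**
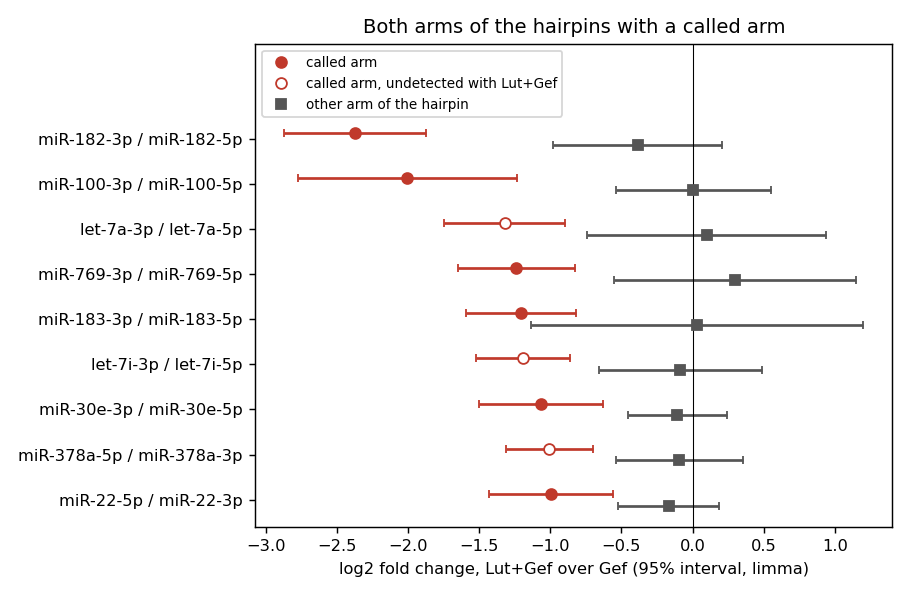
log2 fold change of luteolin plus gefitinib over gefitinib with its 95% interval from limma (x axis) for the called arm (red circles, open where the arm was undetected with luteolin plus gefitinib) and the other arm (grey squares) of 9 hairpins. Every called arm lies near -1 or below, and every interval of the other arms includes 0.

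Of the miRNAs detected on all 4 arrays, 3 were called higher, namely miR-5194, miR-3125 and miR-4716-3p. All 3 came late to the catalogue of human miRNAs, and no role is stated here for them. miR-5194 had signals of 20.2 and 21.8 with gefitinib and 51.8 and 54.3 with luteolin plus gefitinib, and rose by 1.34 (SE 0.17, adjusted p = 0.00974). miR-3125 had 14.5 and 16.1 with gefitinib and 36.3 and 35.8 with luteolin plus gefitinib, and rose by 1.24 (SE 0.14, adjusted p = 0.00778). miR-4716-3p had 22.3 and 23.4 with gefitinib and 41.5 and 39.6 with luteolin plus gefitinib, and rose by 0.83 (SE 0.16, adjusted p = 0.0467). The groups did not overlap, and both probes of each miRNA moved upward, by 0.83 and 1.74 for miR-5194, 0.41 and 1.68 for miR-3125 and 0.19 and 1.24 for miR-4716-3p. Since the arrays with luteolin were dimmer before scaling, these rises depended on the scaling. On unscaled signals miR-5194 was higher by 0.998 (adjusted p = 0.155), miR-3125 by 0.90 (adjusted p = 0.178) and miR-4716-3p by 0.49 (adjusted p = 0.459). Without gefitinib replicate 1 the adjusted p was 0.0969, 0.0550 and 0.254 in the same order. It was 0.0766, 0.0529 and 0.196 when replicate 2 of both drugs was left out, and 0.0509 for miR-5194 and 0.1399 for miR-4716-3p when gefitinib replicate 2 was. The call of miR-4716-3p was also lost without replicate 1 of luteolin plus gefitinib (0.1402) and without DMSO replicate 1 or 2 (0.0779 and 0.0732).

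Most of the other calls were at the limit of detection. There were 26 miRNAs detected on both gefitinib arrays and on neither array of luteolin plus gefitinib, of which 10 were called, and 4 with the reverse pattern, of which 2 were called. These miRNAs were at the floor in 1 group, which has no spread there, so they passed through the group in which they were bright and their number is no support for a direction. A further 43 miRNAs were detected on both gefitinib arrays and on 1 array of luteolin plus gefitinib, and in 42 of these that array was replicate 1. The unscaled signal of replicate 2 was lower, as given above, and its part in the losses was not tested. The folds of these miRNAs compare the mean total signal of the brighter group with the lowest total signal detected on each array of the other. They hold for the total signal alone, to which an undetected probe adds nothing, and set no lower bound on the change of a miRNA. Most differences were smaller on the mean processed signal, which keeps every spot. For miR-520b, with signals of 3.57 and 3.07 on the gefitinib arrays, this fold was 4.79. Its 2 probes moved by -1.37 and -1.11 on the log2 scale, and on the mean processed signal its log2 fold change was -1.26 (adjusted p = 0.0105). For miR-432-5p this fold was 3.11, but its 2 probes moved in opposite directions (-1.03 and 0.32), and on the mean processed signal it had -0.71 (adjusted p = 0.529). Of these 2 miRNAs, miR-520b alone was called under both summaries of the spots with the scaling used. Its call was lost when the mean processed signal was scaled by its percentile over all probes (-0.95, adjusted p = 0.0655 in limma). With normexp it was also lost (-0.08, adjusted p = 0.1345). The passenger strands let-7a-3p and let-7i-3p had gefitinib signals of 1.62 and 1.43 and of 1.34 and 1.45, and on the mean processed signal log2 fold changes of -1.30 and -0.47, neither of them called (adjusted p = 0.0614 and 0.2458). miR-3158-5p, miR-4707-5p, miR-1469, miR-4451, miR-378a-5p and miR-3945 had gefitinib signals between 1.16 and 1.63. Of these 6, only miR-3158-5p was also called on the mean processed signal (-1.12, adjusted p = 0.0105), where the others lay between -0.94 and -0.25. The call of miR-3158-5p was lost when that signal was scaled by its percentile over all probes (-1.01, adjusted p = 0.0520 in limma). In the other direction, miR-5587-5p was detected only with luteolin plus gefitinib, at 4.40 and 3.93, and its log2 fold change on the mean processed signal was 1.92 (adjusted p = 0.0105). This call held under all 24 alternatives, but it rested on 1 of its 2 probes, which moved by 2.77 while the other moved by -0.18. miR-1226-5p, from a mirtron of DHX30, was detected at 1.65 and 1.88, its probes also disagreed (0.85 and -0.01), and on the mean processed signal it had 0.49 (adjusted p = 0.3139). miR-873-5p was detected on both gefitinib arrays at 1.64 and 1.55 and on 1 array of luteolin plus gefitinib at 0.858, and fell by 1.14 (adjusted p = 0.0305). On the mean processed signal its log2 fold change was -0.14 (limma, adjusted p = 0.867), and 0.17 when that signal was scaled by its percentile over all probes. Of these 13 calls, that of let-7a-3p was lost whichever of the 4 arrays compared was left out (adjusted p from 0.0509 to 0.120), that of miR-3945 without gefitinib replicate 1 (0.0615), and that of miR-873-5p without gefitinib replicate 1 or 2 (0.191 and 0.118), replicate 2 of luteolin plus gefitinib (0.118), DMSO replicate 1 or 2 (0.108 and 0.115) or luteolin replicate 2 (0.0748).

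No guide strand of the large miRNA families was called, and most of these are bright miRNAs, of which, as given above, none of the 130 brightest was called. The 9 tested let-7 guides, repressors of RAS genes and HMGA2, had log2 fold changes between -0.09 and 0.27 with a median of 0.08, beside -0.06 over the 480 miRNAs tested. let-7a-5p had 3062 and 2926 with gefitinib and 2946 and 3493 with luteolin plus gefitinib. The 5 members of the miR-17 seed family, which drive proliferation, lay between 0.08 and 0.31, and 4 of the 5 had both arrays of luteolin plus gefitinib above both gefitinib arrays, beside 22.4% of the 388. miR-20a-5p of this family had 258.5 and 274.9 with gefitinib and 307.8 and 353.0 with luteolin plus gefitinib. miR-221-3p and miR-222-3p, repressors of the cell cycle inhibitor p27, had log2 fold changes of 0.44 and 0.35 (adjusted p = 0.264 and 0.3285). miR-221-3p had 349.6 and 324.0 with gefitinib and 464.2 and 451.6 with luteolin plus gefitinib, which did not overlap. The 5 guides of the clusters of miR-23a, miR-24 and miR-27a lay between -0.14 and -0.0039, the 6 of the miR-15 and miR-16 family between -0.14 and 0.09, the 5 of the miR-30 family between -0.14 and 0.27, the 3 of the miR-29 family between 0.01 and 0.13, and the 5 of the families of miR-99a, miR-100 and miR-125a between -0.14 and 0.19. miR-16-5p, a repressor of BCL2 and cyclins, had 666.3 and 683.8 with gefitinib and 620.2 and 709.4 with luteolin plus gefitinib, and miR-29a-3p had 1714 and 1994 with gefitinib and 1799 and 1941 with luteolin plus gefitinib. The groups overlapped for both. The guides of the cluster of miR-183, miR-96 and miR-182 had a median of -0.38. In this cluster miR-96-5p, a repressor of FOXO transcription factors, had 432.1 and 477.0 with gefitinib and 259.0 and 344.2 with luteolin plus gefitinib, a log2 fold change of -0.60 whose 95% interval ran from -1.60 to 0.40 (adjusted p = 0.712). The 4 tested members of the list of the miR-200 family and miR-205 had a median of 0.10, and miR-200b-3p, a repressor of ZEB1, had 153.1 and 123.6 with gefitinib and 152.5 and 133.9 with luteolin plus gefitinib. The 5 members of the miR-320 family lay between 0.06 and 0.23. Of 884 miRNAs on the array that were catalogued late, judged by their high miRNA number, 181 were tested, 4 were called higher and 4 lower (4.42%, near the 4.58% of all tested), and their median was -0.11. Of the miRNAs known to repress EGFR or its pathway, miR-7-5p had a log2 fold change of 0.53, miR-128 of 0.04 and miR-146a-5p of -0.39, and none was called. miR-34a-5p, a target of p53, had 12.5 and 15.4 with gefitinib and 12.2 and 15.8 with luteolin plus gefitinib, a log2 fold change of 0.0023. miR-192-5p and miR-194-5p, also induced by p53, lay at -0.51 and -0.62 and were not called. The sign of several of these medians turned with the processing (for let-7 between -0.29 and 0.37), which moved the median of all 480 miRNAs from -0.06 to -0.39 with no scaling, to -0.43 with the percentile of each array's own detected miRNAs and to 0.24 with the mean processed signal scaled by its percentile over all probes. Relative to the median of all tested miRNAs, the let-7 median lay between 0.04 and 0.15 and that of miR-221-3p and miR-222-3p between 0.31 and 0.47 over 7 settings of scaling and spot summary.

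The passenger strands of these hairpins stood lower. Of 61 on the array 26 were tested and 14 were detected on all 4 arrays. Of the 14, 4 were called lower (miR-182-3p, miR-183-3p, miR-100-3p and miR-30e-3p) and 0 higher, beside 1.55% and 0.773% of the 388. The median log2 fold change of the 14 was -0.40, 12 lay below 0, and 11 had both arrays of luteolin plus gefitinib below both gefitinib arrays, beside 30.2% of the 388. The 388 include the 130 brightest, with a signal of 39.0 or more, of which none was called. The 4 called strands were dimmer than these. The 129 dimmest of the 388 had a median of -0.13. The part of brightness in the lower level of the passenger strands was not tested. The other 2 called passenger strands, let-7a-3p and let-7i-3p, were at the floor with luteolin plus gefitinib and are not counted here. miR-23a-5p had signals of 3.23 and 2.61 with gefitinib and 0.925 and 1.12 with luteolin plus gefitinib, a log2 fold change of -1.51 (adjusted p = 0.267), and miR-29b-1-5p had -1.18 (adjusted p = 0.0662). Passenger strands that hardly differed were miR-17-3p (0.10), miR-29a-5p (0.02) and miR-221-5p (-0.03). The median of the 26 was below that of all tested miRNAs under each of the 7 settings, by between 0.02 and 0.48 on the log2 scale. The hairpins were listed with earlier results of these data known, and the list is described only.

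**Figure D4:**
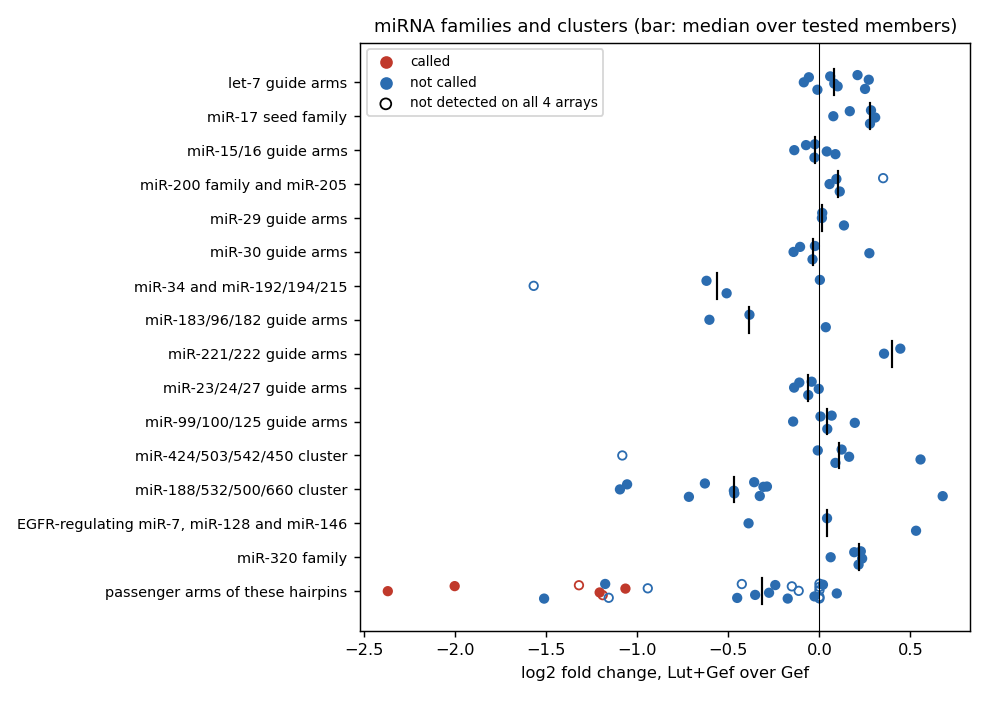
log2 fold change of luteolin plus gefitinib over gefitinib (x axis) for each tested member of the miRNA families and clusters described; red is called, open circles were not detected on all 4 arrays and bars are medians. Medians of the guide families run from -0.57 for the list of miR-34, miR-192, miR-194 and miR-215 to 0.40 for miR-221 and miR-222, with 0.08 for let-7. The called members lie in the list of passenger arms.

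A cluster of hairpins on the X chromosome, that of miR-188, miR-532, miR-500a and miR-660 within CLCN5, lay lower without a call (limma, 0 of 11, beside 2.32% of the 388). Of its 15 members on the array 11 were tested, all on 4 arrays, with a median log2 fold change of -0.47, and 10 of the 11 had both arrays of luteolin plus gefitinib below both gefitinib arrays, beside 30.2% of the 388. miR-188-5p had signals of 36.8 and 34.1 with gefitinib and 16.5 and 17.6 with luteolin plus gefitinib, a log2 fold change of -1.06 (95% interval -1.74 to -0.37, adjusted p = 0.155). miR-502-3p had 3.07 and 4.08 with gefitinib and 1.41 and 1.94 with luteolin plus gefitinib, a log2 fold change of -1.10 (adjusted p = 0.0948). miR-532-5p had 10.51 and 12.1 with gefitinib and 7.89 and 8.42 with luteolin plus gefitinib. The exception was miR-501-5p, whose values are given above and whose log2 fold change was 0.68 (adjusted p = 0.0540). The median of the cluster lay below that of all tested miRNAs by between 0.05 and 0.41 over the 7 settings. In contrast, the cluster of miR-424, miR-503, miR-542 and miR-450a, also on the X chromosome, had a median of 0.10 over 6 tested members, and miR-424-5p had 82.0 and 77.6 with gefitinib and 80.8 and 89.0 with luteolin plus gefitinib.

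To see whether luteolin did the same without gefitinib, the luteolin arrays were compared with the DMSO arrays, which share no array with the comparison above. Over the 365 miRNAs detected on all 8 arrays the log2 fold changes of luteolin with and without gefitinib correlated with Pearson's r of 0.37 and Spearman's rho of 0.27, and 57.8% had the same sign. Of these 365, 8 (2.19%) were called in the presence of gefitinib, 3 higher (0.822%) and 5 lower (1.37%). The points share the slide and the brightness of each miRNA. With replicates 1 alone r was 0.27 and with replicates 2 alone 0.42. It was 0.10 when luteolin replicate 1 was set against DMSO replicate 2, with 51.5% of the same sign, and 0.28 for the reverse crossing. Differences between replicates correlated with r of 0.908 between the DMSO and luteolin groups, so that these values depend on which arrays are set against each other. Luteolin without gefitinib gave 10 calls of 480 (2.08%), and 9 with the replicate number as a block, all among the 10. Of the 22 miRNAs called with gefitinib, 2 were among these, miR-432-5p (-1.81, adjusted p = 0.00383) and let-7a-3p (-1.48, adjusted p = 0.0112), and 9 were undetected on all DMSO and luteolin arrays. miR-432-5p was undetected on every array with luteolin, with or without gefitinib, so that the floor set the size of both of its falls. let-7a-3p was at the floor with luteolin plus gefitinib. miR-100-3p had 37.8 and 48.2 with DMSO and 15.2 and 10.0 with luteolin, a log2 fold change of -1.79 (adjusted p = 0.0566), beside -2.004 in the presence of gefitinib, and the difference between both effects was -0.21 (95% interval -1.30 to 0.87, adjusted p = 0.986). miR-182-3p had 7.37 and 8.32 with DMSO and 4.64 and 3.31 with luteolin, a log2 fold change of -0.9998 (adjusted p = 0.0939), and the difference between its effects was -1.37 (adjusted p = 0.0814). Its arrays with gefitinib were above, and those with both drugs below, all arrays without gefitinib. miR-183-3p had -0.47 without gefitinib, miR-30e-3p -0.43 and miR-22-5p -0.24, and none of these differences between effects was called (adjusted p from 0.273 to 0.455). Among the 26 tested passenger strands, those not detected on every array included, the median log2 fold change of luteolin without gefitinib was -0.72, beside -0.10 over all tested miRNAs, with 0 called higher and 4 called lower, beside 0.208% and 1.88% of all tested miRNAs. Some of the 26, such as let-7e-3p and let-7f-2-3p, passed only through groups without gefitinib, so that these values are no support for a direction. The ratio of arms was called for 10 of the 54 hairpins (18.5%) without gefitinib, of which 4 were also called with it. Of these, 3 had both arms detected on all 4 arrays of the comparison with gefitinib: miR-100 (1.85 without gefitinib, adjusted p = 0.0179), miR-182 (1.25, adjusted p = 0.0457) and miR-29b-1 (-1.51, adjusted p = 0.00408). The other 6 were called without gefitinib alone, and 9 with gefitinib alone. The difference between the effects on the ratio was called for miR-181a (2.86 without and 0.65 with gefitinib, adjusted p = 0.0407), miR-222 (-2.33 and -0.35, adjusted p = 0.0231), miR-5003 (0.57 and -1.75, adjusted p = 0.0492) and let-7e (1.99 and 0.25, adjusted p = 0.0492), each with an arm below detection on some arrays.

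**Figure D5:**
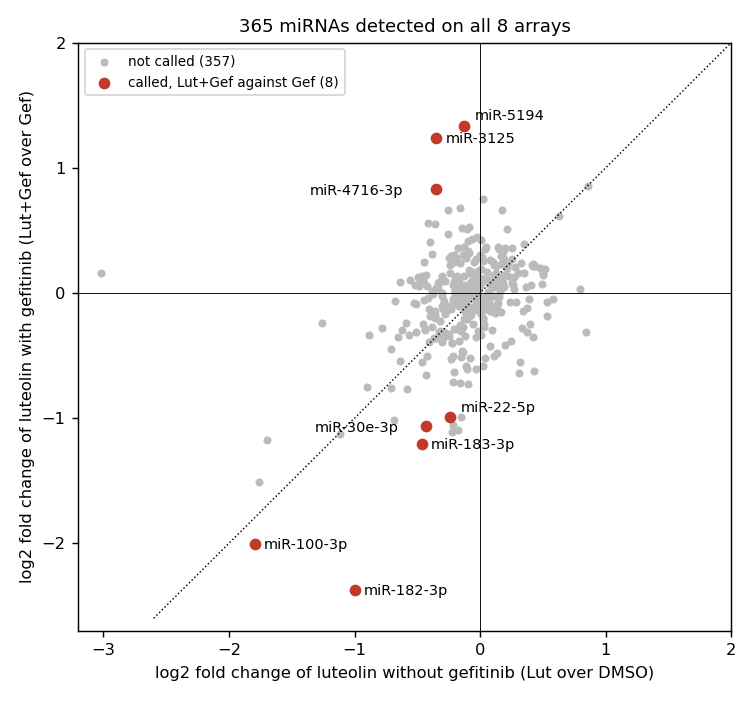
log2 fold change of luteolin in the presence of gefitinib (y axis) against that without gefitinib (x axis) for the 365 miRNAs detected on all 8 arrays, with 8 called miRNAs in red and a dotted line of equal effects. miR-100-3p lies near the line, miR-182-3p lies below it, and the 3 red points above 0 (miR-5194, miR-3125 and miR-4716-3p) lie left of 0 on the x axis; r over all points is 0.37.

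The rise of 2 of the 3 miRNAs with gefitinib differed from the effect of luteolin without it, under the scaling used. miR-3125 had 19.3 and 17.6 with DMSO and 15.4 and 13.6 with luteolin, a log2 fold change of -0.35, and the difference between the effects of luteolin with and without gefitinib was 1.59 (95% interval 1.09 to 2.08, adjusted p = 0.0167). miR-5194 had 26.0 and 22.9 with DMSO and 25.2 and 19.8 with luteolin, a log2 fold change of -0.13, and a difference of 1.46 (0.87 to 2.06, adjusted p = 0.0361). For miR-4716-3p the difference was 1.18 (adjusted p = 0.0582). The difference between effects was called for 16 of 480 miRNAs (3.33%), 9 higher and 7 lower, and 11 of these were among the 22. Of the 11, only miR-3125 and miR-5194 were detected on all 8 arrays. With no scaling these differences were 1.097 for miR-3125 and 0.97 for miR-5194 (adjusted p = 0.265 and 0.372), with the percentile of each array's own detected miRNAs the adjusted p was 0.505 and 0.622, and with the mean processed signal scaled by its percentile over all probes it was 0.0699 for both. Without single arrays the call of miR-3125 was lost in 4 of 8 fits, DMSO replicate 1 (0.0560), gefitinib replicate 1 (0.0700) and replicates 1 and 2 of luteolin plus gefitinib (0.0516 and 0.0764). That of miR-5194 was lost with the replicate number as a block (0.0562), and without DMSO replicates 1 and 2 (0.121 and 0.0690), gefitinib replicates 1 and 2 (0.156 and 0.0902) and replicates 1 and 2 of luteolin plus gefitinib (0.0891 and 0.135).

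miR-630 and miR-5703, the miRNAs that the study followed in gefitinib-treated cells, were not called in either direction when luteolin was added. miR-630 had signals of 111.9 and 121.2 with gefitinib and 79.4 and 111.1 with luteolin plus gefitinib, a log2 fold change of -0.31 whose 95% interval ran from -1.21 to 0.60. miR-5703 had 105.5 and 113.8 with gefitinib and 81.9 and 124.7 with luteolin plus gefitinib, a log2 fold change of -0.12 (95% interval -1.07 to 0.83), and its groups overlapped, whereas those of miR-630 came within 1 unit of each other. In both cases the arrays with luteolin differed from each other by more than the group means did, so that changes up to about the size of these intervals were not detectable with 2 arrays a group. Without gefitinib their signals were lower, between 18.6 and 40.2 for miR-630 and between 19.4 and 42.2 for miR-5703 on the DMSO and luteolin arrays.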

How the data were processed

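Total RNA of PC-3 cells was labelled with Cy3 and hybridised to 1-colour Agilent miRNA arrays, 8 arrays on 1 slide read in 1 scan. The authors extracted each array with Agilent Feature Extraction, version 10.7.3.1 in the file headers. In the deposited files each value is a background-subtracted signal intensity on a linear scale, not normalized between arrays. The total signal per miRNA sums the probes of that miRNA and is set to 0.1 where none is detected. The series table holds the processed signal per spot, within 0.5% for 100% of the spots. No spot was saturated (0 of 56610 on each array).

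Total signals were scaled by the 75th percentile over the 365 miRNAs detected on all 8 arrays, set to at least 0.609 (the lowest detected signal of an array, median of 8) and put on the log2 scale. The 480 miRNAs that both arrays of 1 or more groups detected were fitted with limma 3.58.1 in R 4.3.3, 1 fit of the 4 groups with 4 residual degrees of freedom and a prior of 1.66, two-sided, with Benjamini-Hochberg adjustment over all miRNAs tested. Scripts were tested on simulated data. An exact permutation test of 2 arrays against 2 cannot give a two-sided p under 0.333, and the small number of arrays limits the precision. Replicate numbers were not used as pairs: differences between replicates correlated with r of 0.0652 between the gefitinib groups and 0.908 between DMSO and luteolin, and between -0.135 and 0.461 for the other pairs of groups. Named were all 22 called miRNAs, their other arms, miR-630, miR-5703, and from each list the called members or the brightest, and any other member named was chosen after its values were seen. The members and lists were chosen with earlier results of these data known. Sequences are RefSeq's on GRCh38.p14, and the array design names another build. Alternatives changed the scaling, spot summary, background correction, floor, filter, test and arrays.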

Additional observations from a re-analysis of the deposited data

Results flagged for a closer look

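For 11 of the 22 called miRNAs, limma called the difference between the effects of luteolin in cells with and without gefitinib. The differences, on the log2 scale, were 1.59 for miR-3125 and 1.46 for miR-5194, both detected on all 8 arrays. The other 9 were undetected on at least 1 whole group, where the floor sets the value: 2.77 for miR-5587-5p, 1.53 for miR-1226-5p, -2.44 for miR-520b, -1.37 for miR-3158-5p, -1.15 for miR-4707-5p, -1.09 for miR-1469, -1.10 for miR-4451, -1.01 for miR-378a-5p and -0.98 for miR-3945. All of these 9 but miR-4451 were undetected on every DMSO and luteolin array. There the floor set the effect without gefitinib to 0. The difference then repeats the fold change with gefitinib and is no separate evidence. The adjusted p-values of the 11 in limma lay between 0.00319 and 0.0450. When 1 array was left out the calls of miR-520b and miR-5587-5p held in all 8 fits, with adjusted p-values up to 0.0375 and 0.0269, and each of the other 9 was lost in at least 2 fits. On the mean processed signal the differences were -1.26 for miR-520b and 1.73 for miR-5587-5p and neither was called (adjusted p = 0.0644 and 0.0544). Both calls were also lost on the series table, with that signal scaled by its percentile over all probes (0.35 and 0.0699), with log2 of the signal plus 16 (0.176 and 0.0911) and with normexp (0.386 and 0.112). With the replicate number as a block the adjusted p was 0.0562 for miR-5194 and miR-3945, 0.057 for miR-378a-5p and 0.0521 for miR-4451, and these 4 calls were lost.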

How the results depend on the processing

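The count of 22 miRNAs called between luteolin plus gefitinib and gefitinib was 11 after quantile normalization, 13 on the mean processed signal scaled by its percentile over all probes, 10 on the mean processed signal and likewise on the series table, 11 with normexp, 8 with log2 of the signal plus 16, 7 when only miRNAs detected on all 8 or on all 4 arrays were tested, 13 with no filter and 41 with the arrays of both groups alone. The methods' t-test, run without the methods' limit on fold change, gave 86 before and 19 after adjustment, and 9 of the 19 were among the 22. Of the 11 with normexp 6 were among the 22. So were 7 of the 13 with the percentile over all probes and 19 of the 41 with the arrays of both groups alone. Leaving out 1 array gave 12 to 34. Of the named calls, 2 of 22 (miR-182-3p and miR-5587-5p) held under each alternative run for them. With the mean processed signal and the percentile over all probes together the log2 fold changes of miR-378a-5p, miR-4707-5p and miR-873-5p were 0.0218, 0.0557 and 0.17 (with the mean processed signal alone -0.29, -0.25 and -0.14), and with normexp that of miR-873-5p was 0.0027. The cause was not tested. With the replicate number as a block the count was 24, with all 22 among them, and 12 for the difference between the luteolin effects. That difference, called for 16 miRNAs, was called for 5 with no scaling, 7 after quantile normalization, 4 with each array's own detected miRNAs, 0 with the mean processed signal and the percentile over all probes (limma, 32 before adjustment), 4 on mean processed signals, 3 on the series table, 7 with normexp, 9 with a floor of 1, 3 with log2 of the signal plus 16, 2 for miRNAs detected on all 8 or all 4 arrays and 7 with trend and robust moderation, and for 4 to 27 when 1 array was left out. The 13 called arm ratios were 0 with normexp (limma, 10 before adjustment) and with log2 of the signal plus 16 (11 before adjustment), 7 among arms detected on all 4 arrays, and 0 to 16 when 1 array was left out. Signals near the detection limit, which differed between arrays, limit what can be said of dim miRNAs.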
